A study of Mus musculus with 12 samples.

Results

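The genes described here encode the subunits of the proteasome. They are the rows of a deposited expression table whose symbol is Psma, Psmb, Psmc, Psmd or Psme followed by a number, with at least 1 TPM (transcript level per length and library total) in at least 3 of 12 libraries. Of 18530 genes in the table, 43 matched by symbol and 41 met the minimum: the 3 immunoproteasome subunits Psmb8, Psmb9 and Psmb10, and 38 others, called constitutive here. The 2 left out were Psma8, a testis-type alpha subunit, at 0.173 to 1.34 TPM with 2 libraries at 1 TPM or more, and Psmb11, the thymus-type beta subunit, at 0 to 0.323 TPM. The lowest members inside the minimum, Psmd10, Psmd5 and Psmd9, averaged 12.1 to 12.6 TPM, so no member lay near it.

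Cardiomyocytes were isolated from mouse hearts and their poly-A RNA sequenced in 12 libraries, 3 per group: mdx:Utrn+/- with PB1046, mdx:Utrn+/- with saline, mdx with PB1046 and mdx with saline. All 4 groups carry mdx, a mutation of the dystrophin gene that models Duchenne muscular dystrophy. The mdx:Utrn+/- groups are also heterozygous for loss of utrophin, the dystrophin homologue that partly stands in for it, so no library is from a heart with normal dystrophin. PB1046 is a long-acting analogue of vasoactive intestinal peptide. Mice got PB1046 or saline on alternate days between weeks 4 and 12 of age, and hearts were taken at week 14, after dosing had ended. Of the 2 doses in the protocol, 0.75 and 1.5 mg/kg, the higher was used for these libraries going by their titles, which say high dose only. Each library was taken as a separate mouse, which the labels do not state, so p-values measure the spread between these libraries.

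The proteasome degrades proteins that carry ubiquitin chains. Its 20S core stacks rings of alpha subunits, which gate the channel, around rings of beta subunits, of which Psmb5, Psmb6 and Psmb7 encode the catalytic ones. The 19S cap recognises ubiquitin, removes it and unfolds the substrate with a ring of ATPases, and the PA28 and PA200 activators can take the place of the cap. Interferon-gamma and NF-kB signalling are known to induce Psmb8, Psmb9 and Psmb10, whose products replace those of Psmb5, Psmb6 and Psmb7 during assembly and change the peptides made for antigen presentation. The constitutive genes are known to be induced together by the transcription factor NRF1 (Nfe2l1). The heart relies on the proteasome for turnover of sarcomere proteins.

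The promoters of Psmb8, Psmb9 and Psmb5 are shown because Psmb8 and Psmb9 spread most between libraries, and Psmb5 is the constitutive counterpart of Psmb8. Each runs from 250 bases before to 50 bases after the gene start, 5′ to 3′ on the gene's own strand, and comes from RefSeq on GRCm38.p6. Capitals mark matches, on either strand, to any of 6 motifs: the antioxidant response element core TGANNNNGC, the short cAMP response element TGACG, an NF-kB site (GGG, any 5 bases, CC), the gamma-interferon activated site TTCNNNGAA, the interferon-stimulated response element (GAAA, any 2 bases, GAAA) and the CCAAT box. The windows are chr17:34197945-34198244 on the plus strand for Psmb8, chr17:34187281-34187580 on the minus strand for Psmb9 and chr14:54617946-54618245 on the minus strand for Psmb5.
Psmb8: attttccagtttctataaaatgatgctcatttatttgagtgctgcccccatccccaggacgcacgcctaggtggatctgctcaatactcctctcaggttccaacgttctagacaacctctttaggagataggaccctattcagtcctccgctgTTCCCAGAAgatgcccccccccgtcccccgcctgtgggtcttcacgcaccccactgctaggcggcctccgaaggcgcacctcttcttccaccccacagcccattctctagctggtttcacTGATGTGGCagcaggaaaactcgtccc
Psmb9: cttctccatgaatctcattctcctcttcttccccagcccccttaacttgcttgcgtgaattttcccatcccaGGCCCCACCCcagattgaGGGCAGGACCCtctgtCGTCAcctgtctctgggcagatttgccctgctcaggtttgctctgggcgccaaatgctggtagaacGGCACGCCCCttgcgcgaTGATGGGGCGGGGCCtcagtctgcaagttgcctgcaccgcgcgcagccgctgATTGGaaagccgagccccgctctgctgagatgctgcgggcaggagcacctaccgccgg
Psmb5: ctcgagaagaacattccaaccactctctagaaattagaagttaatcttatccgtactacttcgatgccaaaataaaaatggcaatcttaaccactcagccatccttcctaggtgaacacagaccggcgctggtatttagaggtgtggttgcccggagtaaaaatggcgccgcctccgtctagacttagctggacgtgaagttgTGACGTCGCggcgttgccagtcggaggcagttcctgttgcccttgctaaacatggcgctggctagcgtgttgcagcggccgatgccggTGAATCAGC

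The Psmb8 window held a gamma-interferon activated site match that starts 97 bases before the gene start, and an antioxidant core match 24 bases after it. The Psmb9 window held matches to the NF-kB, cAMP element, antioxidant core and CCAAT letters. The Psmb5 window held an antioxidant core match 47 bases before the start, which overlaps the cAMP element match there, and another that starts 42 bases after it. RefSeq windows were found for 35 of the 41 members, 38 windows in all because some genes have more than 1 start, and were set beside 32851 windows of all genes. The cAMP element stood in 50% of the member windows and 20.8% of all windows. The antioxidant core stood in 57.9% of member windows and 41.3% of all windows, and the NF-kB letters in 55.3% and 50.8%. The interferon-stimulated element stood in 10.53% of member windows (Psmb3, Psmd4, Psmd9 and Psme1) and 3.44% of all windows. The gamma-interferon site stood in 5.26% (Psmb8 and Psmd2) and 8.30%, and CCAAT in 34.2% and 37.4%. A match is a description of the letters, not of binding. On chromosome 17 the Psmb8 and Psmb9 genes are 10864 bases apart, with Tap1, a subunit of the peptide transporter of antigen presentation, 225 bases from Psmb9 and 969 bases from Psmb8.

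Libraries held 7234100 to 25458194 reads, recovered from the TPM. Behind the lowest value of a member stood 36 reads, for Psmb9. Utrn itself was listed at 4.39 to 9.92 TPM in mdx:Utrn+/- PB1046 and 3.32 to 6.28 TPM in mdx:Utrn+/- saline, against 6.11 to 18.3 TPM in mdx PB1046 and 8.92 to 11.3 TPM in mdx saline. These ranges overlap between genotypes under PB1046 and not under saline. All 10 cardiomyocyte markers were present, with a sum of 92155 to 127857 TPM. Of other cells, all 12 endothelial markers were above 0 in every library (sum 238 to 1589 TPM), as were the 13 macrophage markers tested (144 to 1036 TPM) and the 8 fibroblast markers (174 to 1023 TPM), while lymphocyte markers summed to 1.36 to 8.11 TPM with Cd3e at 0 in 4 libraries. In such bulk samples, fewer cells of a type and less RNA per cell cannot be told apart.

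Proteasome transcripts made up 0.519% to 0.649% of all TPM in the 12 libraries. On the TPM scale, which is per transcript length, the beta ring stood above the other parts. Its 7 constitutive members averaged 151 to 364 TPM (median 260 TPM), with Psmb4, a structural beta subunit needed for ring assembly, at the top. The 7 alpha subunits averaged 92.0 to 303 TPM (median 152 TPM), with Psma6 highest and Psma5 lowest. The 6 base ATPases Psmc1 to Psmc6 averaged 85.7 to 283 TPM (median 126 TPM), led by Psmc3. The 11 non-ATPase subunits of the cap averaged 44.9 to 264 TPM (median 96.4 TPM), led by the ubiquitin receptor Psmd4, with the lid subunit Psmd11 lowest and the deubiquitinase Psmd14 at 53.3 TPM. The 3 genes named Psmd that encode assembly chaperones of the base (Psmd5, Psmd9, Psmd10) averaged 12.1 to 12.6 TPM. Of the activators, Psme1 (PA28 alpha) averaged 185 TPM, Psme2 (PA28 beta) 97.6 TPM, Psme4 (PA200) 85.7 TPM and Psme3 (PA28 gamma) 31.1 TPM. The immunoproteasome subunits averaged 92.5 TPM for Psmb10, 40.3 TPM for Psmb8 and 21.8 TPM for Psmb9. Psme2 has a near copy, Psme2b, listed at 0.426 to 4.17 TPM, so its level is uncertain by what reads the copies share. Psma3, Psma4, Psmd1 and Psme1 overlap a gene on the opposite strand and Psma6 and Psmb5 hold a microRNA gene on their own strand; whether counting used strand is not given in the sources used here.

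**Figure D1:**
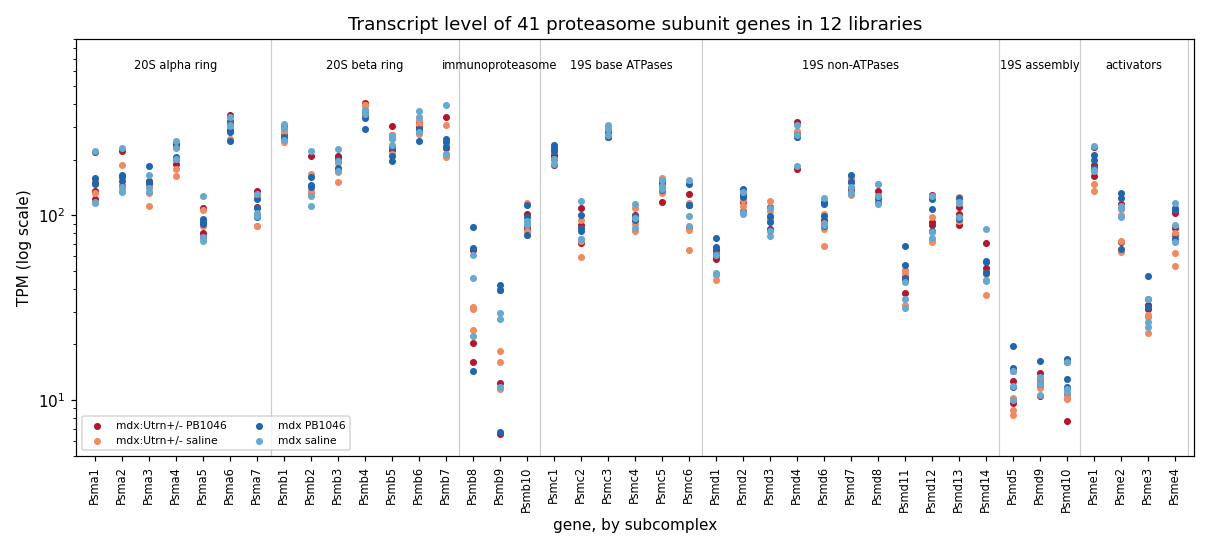
Level of the 41 proteasome subunit genes (TPM, log axis), grouped by subcomplex, with 1 dot per library coloured by group. Most genes keep their 12 libraries within a narrow band, while Psmb8 (14.4 to 86.2 TPM) and Psmb9 (6.56 to 41.7 TPM) spread far wider.

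The inducible subunits Psmb8 and Psmb9 had the widest spread of the 41 members, with large differences within groups. Psmb8 (the chymotrypsin-like inducible subunit) had 16.1, 64.7 and 20.2 TPM in mdx:Utrn+/- PB1046 and 31.1, 32.0 and 24.0 TPM in mdx:Utrn+/- saline, against 14.4, 66.5 and 86.2 TPM in mdx PB1046 and 22.2, 45.7 and 60.8 TPM in mdx saline. Psmb9 (the caspase-like position) had 6.56, 39.5 and 12.3 TPM in mdx:Utrn+/- PB1046 and 18.5, 16.1 and 11.5 TPM in mdx:Utrn+/- saline, against 6.71, 39.4 and 41.7 TPM in mdx PB1046 and 11.8, 27.6 and 29.6 TPM in mdx saline. Replicate 2 of mdx:Utrn+/- PB1046 and replicates 2 and 3 of mdx PB1046 were the 3 highest libraries for both genes, and replicate 1 of each PB1046 group the 2 lowest. Every pair of groups overlapped. Group means of Psmb8 were 33.7 ± 26.9 TPM in mdx:Utrn+/- PB1046 and 29.0 ± 4.36 TPM in mdx:Utrn+/- saline, against 55.7 ± 37.1 TPM in mdx PB1046 and 42.9 ± 19.4 TPM in mdx saline (SD, n = 3 each).

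Psmb10, the third inducible subunit (trypsin-like position), did not share this spread. It had 83.5, 102 and 86.3 TPM in mdx:Utrn+/- PB1046 and 117, 82.4 and 77.7 TPM in mdx:Utrn+/- saline, against 78.2, 98.1 and 113 TPM in mdx PB1046 and 88.9, 90.4 and 92.7 TPM in mdx saline. Its highest library, replicate 1 of mdx:Utrn+/- saline, was ranked 7 for Psmb8. The highest library over the lowest was 5.99 for Psmb8 and 6.35 for Psmb9 but 1.50 for Psmb10. For the 38 constitutive members it was 1.17 (Psmc3) to 2.41 (Psmc6), with a median of 1.66, and the median of 12512 tested genes above 0 in every library was 2.55. On log2 values after scaling between libraries, the SD over the 12 libraries was 0.70 for Psmb8, 0.75 for Psmb9, 0.20 for Psmb10 and 0.18 to 0.39 for the constitutive members. Of all tested genes, 94.2% had a smaller SD than Psmb8, 95.7% than Psmb9 and 14.8% than Psmb10. For the constitutive members that share ran from 9.1% (Psmd9) to 67.2% (Psma1), with 61.8% for Psmb5 and 62.4% for Psmb7. Their median SD was 0.26, beside 0.32 for all tested genes. The constitutive members also stood at higher levels, with a median of 124 TPM beside 10.7 TPM for all tested genes.

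The constitutive catalytic subunits were more even than Psmb8 and Psmb9. After scaling they were less even than Psmb10, with an SD of 0.36 (Psmb5), 0.29 (Psmb6) and 0.37 (Psmb7), against 0.20. Psmb5 had 302, 225 and 270.2 TPM in mdx:Utrn+/- PB1046 and 263, 215 and 271 TPM in mdx:Utrn+/- saline, against 235, 209 and 198 TPM in mdx PB1046 and 258, 239 and 267 TPM in mdx saline. Psmb6 had 321, 301 and 298 TPM in mdx:Utrn+/- PB1046 and 313, 277 and 325 TPM in mdx:Utrn+/- saline, against 286, 252 and 292 TPM in mdx PB1046 and 281, 339 and 365 TPM in mdx saline. Psmb7 had 234, 229.5 and 338 TPM in mdx:Utrn+/- PB1046 and 205, 236 and 307 TPM in mdx:Utrn+/- saline, against 249, 258 and 233 TPM in mdx PB1046 and 395, 214 and 215 TPM in mdx saline. On this scale Psmb5 was lower in all 3 mdx PB1046 libraries than in the 3 mdx saline libraries, while Psmb6 and Psmb7 overlapped between those groups.

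**Figure D2:**
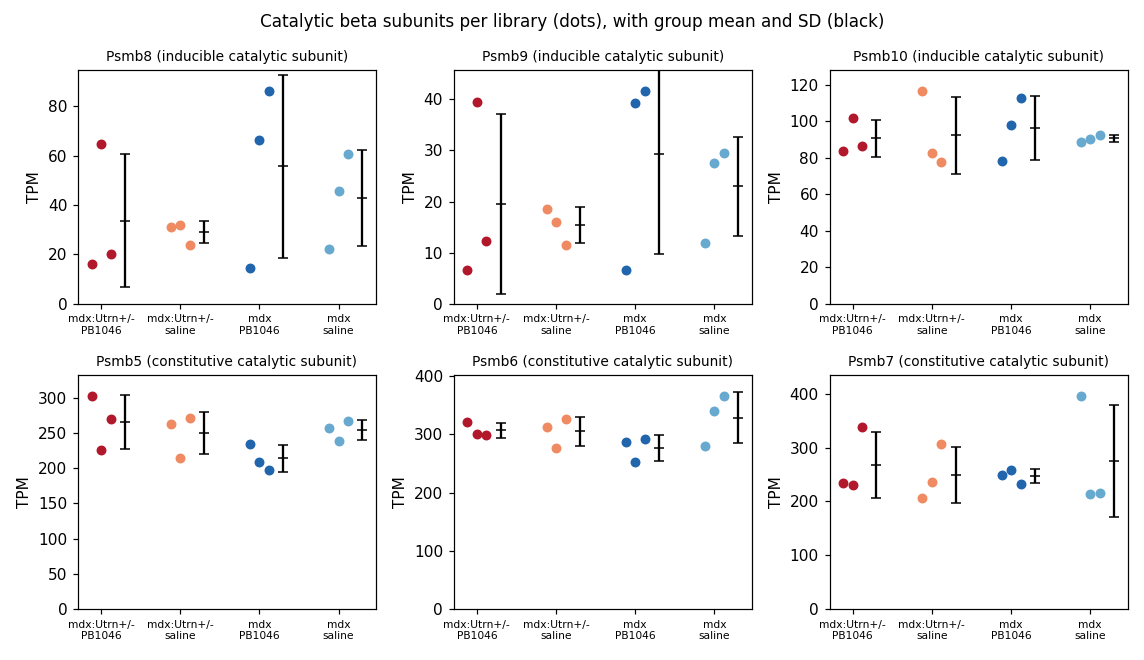
TPM of the inducible catalytic subunits (top row) and the constitutive subunits they replace (bottom row) in each library (dots, replicates 1 to 3 from left to right within a group), with group mean and SD (black, n = 3). Within each PB1046 group Psmb8 and Psmb9 differ several-fold between replicates, from 14.4 to 86.2 TPM for Psmb8 in mdx PB1046, while Psmb5, Psmb6 and Psmb7 stay between 198 and 395 TPM.

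A ratio of an inducible subunit to its counterpart in the same library does not depend on scaling between libraries. Psmb8 made up 5.05%, 22.3% and 6.96% of Psmb8 plus Psmb5 TPM in mdx:Utrn+/- PB1046 and 10.6%, 12.9% and 8.15% in mdx:Utrn+/- saline, against 5.78%, 24.1% and 30.4% in mdx PB1046 and 7.94%, 16.0% and 18.5% in mdx saline. Psmb9 made up 2.00% to 13.5% of Psmb9 plus Psmb6, and Psmb10 18.4% to 36.2% of Psmb10 plus Psmb7. The constitutive gene therefore held the larger share in every library and for each pair. A two-sided exact permutation test exchanged labels within the other factor (400 relabelings, smallest p 0.005), with 6 tests in the family. The log2 ratio of Psmb8 to Psmb5 differed by 0.12 between PB1046 and saline averaged over genotypes (exact p = 0.835) and by -0.69 between mdx:Utrn+/- and mdx averaged over treatments (exact p = 0.225). For Psmb9 over Psmb6 the differences were 0.13 (exact p = 0.82) and -0.57 (exact p = 0.345), and for Psmb10 over Psmb7 they were 0.03 (exact p = 0.915) and -0.04 (exact p = 0.895). All 6 had an adjusted p of 0.915 in these exact tests, so no difference was detected. With 3 libraries per group this does not show that the ratios are equal. The log2 ratio of Psmb8 to Psmb5 for PB1046 minus saline was -0.15 in mdx:Utrn+/- and 0.39 in mdx.

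The libraries high in Psmb8 and Psmb9 were also high in endothelial markers and interferon-response genes. The 5 libraries that ranked highest for Psmb8, namely replicate 2 of mdx:Utrn+/- PB1046, replicates 2 and 3 of mdx PB1046 and replicates 2 and 3 of mdx saline, were the same 5 that ranked highest for Psmb9, for the endothelial score and for the interferon score. A score is the mean over a list of the centred log2 level. The endothelial score was 0.29 to 1.12 in those 5 libraries and -0.92 to -0.16 in the other 7, and the 12 endothelial markers summed to 719 to 1589 TPM against 238 to 445 TPM. The interferon score was 0.35 to 0.53 against -0.62 to 0.00. The macrophage score did not order the libraries this way: it spanned -0.94 to 1.00 over those 5 and -0.60 to 1.39 over the other 7, with its highest value in replicate 1 of mdx:Utrn+/- saline, the library highest in Psmb10. Tap1, B2m and H2-K1, which carry out antigen presentation by class I molecules, were also higher in all 5 libraries, as were Irf1 and Nlrc5, regulators of that pathway. Tap1 was 15.6 to 21.4 TPM against 5.20 to 10.6 TPM, and B2m 648 to 1230.0 TPM against 307 to 574 TPM. Tap2 and Tapbp overlapped, and these genes were picked after values were seen. On the TPM scale 2 of the 41 members were higher in all 5 libraries, Psmb9 and, by the choice of these libraries, Psmb8, beside 15.5% of the 12798 tested genes. These 5 libraries fall in 3 groups and are no group of the study. The part of endothelial cells in the levels of Psmb8 and Psmb9 was not tested apart from fits with the endothelial score as a term, whose values stand in the closing section.

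**Figure D3:**
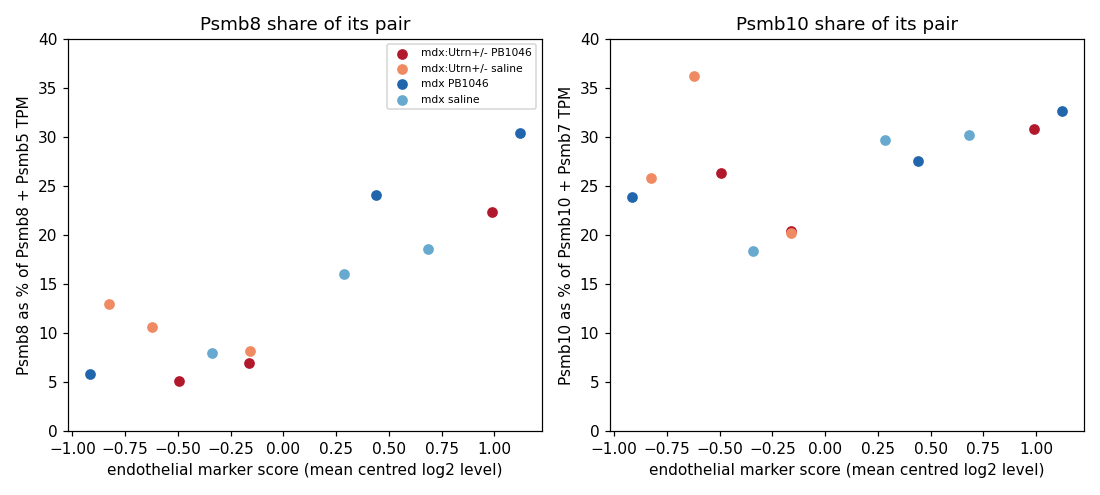
Share of Psmb8 in Psmb8 plus Psmb5 TPM (left) and of Psmb10 in Psmb10 plus Psmb7 TPM (right) against the endothelial marker score of each library, coloured by group. The 5 libraries with a score above 0 hold the 5 highest Psmb8 shares (16.0% to 30.4%, against 5.05% to 12.9%), whereas the highest Psmb10 share (36.2%) has a score of -0.62.

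The activators varied less than Psmb8 and Psmb9. Psme1 had 164, 187 and 233.5 TPM in mdx:Utrn+/- PB1046 and 147, 135 and 178 TPM in mdx:Utrn+/- saline, against 179, 211 and 200.04 TPM in mdx PB1046 and 238, 176 and 173 TPM in mdx saline. Psme2, its partner in the PA28 ring, had 71.5, 115 and 109 TPM in mdx:Utrn+/- PB1046 and 72.8, 63.2 and 100.4 TPM in mdx:Utrn+/- saline, against 65.4, 132 and 124 TPM in mdx PB1046 and 108, 97.9 and 112 TPM in mdx saline. The genes lie 5912 bases apart on chromosome 14, and both are known to be interferon-inducible. For Psme2 replicate 1 of mdx PB1046 was low within its group, as it was for Psmb8 and Psmb9. Psme3, the nuclear PA28, had 28.6, 32.8 and 31.1 TPM in mdx:Utrn+/- PB1046 and 23.1, 28.8 and 27.96 TPM in mdx:Utrn+/- saline, against 32.0, 47.0 and 35.4 TPM in mdx PB1046 and 35.2, 26.4 and 24.9 TPM in mdx saline. Psme4, which encodes PA200, had 78.1, 85.4 and 103 TPM in mdx:Utrn+/- PB1046 and 52.8, 62.3 and 80.1 TPM in mdx:Utrn+/- saline, against 107, 109 and 74.6 TPM in mdx PB1046 and 116, 71.7 and 88.4 TPM in mdx saline. Every activator overlapped between PB1046 and saline in both genotypes once scaled.

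PB1046 was compared with saline within each genotype to ask whether the treatment moved proteasome transcripts. No member passed the test. In mdx, limma with Benjamini-Hochberg adjustment over 12798 genes called 0 of 41 members at an adjusted p under 0.05 (0.0% of all genes), and 0 had an unadjusted p under 0.05 (3.17% of all genes, 406). The smallest adjusted p among members was 0.999. In mdx:Utrn+/-, 0 members were called (0.0% of all genes) and 0 had an unadjusted p under 0.05 (2.01% of all genes, 257). In limma-voom on recovered reads the counts of members were also 0 at both thresholds in each genotype, with 440 and 205 genes at an unadjusted p under 0.05. After scaling, groups overlapped for all 41 members in both comparisons, where 8.33% and 5.79% of tested genes did not overlap. On deposited TPM 4 members were higher and 1 lower without overlap in mdx, beside 6.56% and 2.06% of tested genes, and 2 higher and 0 lower in mdx:Utrn+/-, beside 5.14% and 1.06%.

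Psmb8 had a log2 change of -0.01 for PB1046 in mdx (95% interval -1.20 to 1.18) and -0.22 in mdx:Utrn+/- (-1.41 to 0.97). Psmb9 had -0.07 (-1.37 to 1.22) and -0.18 (-1.48 to 1.11), and Psmb10 had -0.08 (-0.49 to 0.32) and -0.18 (-0.59 to 0.23). The intervals of Psmb8 and Psmb9 thus reach past 1 log2 unit in at least 1 direction, those of Psmb10 do not. Among the constitutive members of mdx libraries, all 7 alpha and all 7 beta subunits had a log2 change below 0 after scaling (49.0% of tested genes), with medians of -0.16 and -0.28, and Psmb5 (-0.41) and Psmb6 (-0.39, unadjusted p = 0.093) had the lowest values. Without scaling factors 4 of 7 alpha and 6 of 7 beta subunits were below 0, with medians of -0.00 and -0.13. Over all 38 constitutive members 10 were above and 28 below 0 with a median of -0.13, beside 51.0% of tested genes above 0 and a median of 0.01 for all genes. Without scaling the members' median was 0.02, beside 0.14 for all genes, so the direction of the median turned with scaling while the members stood below the median gene either way. These values also rested on replicate 1 of mdx saline, 1 of the 2 libraries highest in summed constitutive TPM: without it the median of the 38 was 0.07, with 23 above 0, and 3 of 7 alpha (median 0.08) and 5 of 7 beta subunits (median -0.21) were below 0. Cell markers also had medians off 0 in this comparison, with none called. Of the cardiomyocyte markers 9 of 10 were below 0 (median -0.29). All 8 of 8 fibroblast (median 0.56) and 13 of 13 macrophage markers (median 0.45) were above 0. The scores of these lists overlapped between the groups. The macrophage score was 0.02, -0.30 and 1.00 in mdx PB1046, against -0.54, 0.97 and -0.94 in mdx saline. The fibroblast score was 0.51, 0.08 and 0.94 in mdx PB1046, against -0.51, 0.62 and -0.74 in mdx saline. The part of these cell types in the members' values was not tested. In mdx:Utrn+/- 15 constitutive members were above and 23 below 0 with a median of -0.08, beside 49.7% of tested genes above 0 and a median of -0.00. Without scaling that median was 0.09, beside 0.15 for all genes, and without replicate 2 of mdx:Utrn+/- PB1046 it was 0.14. Cell scores differed here too. The mean endothelial score was 0.11 in mdx:Utrn+/- PB1046 and -0.54 in mdx:Utrn+/- saline, and the macrophage score -0.30 and 0.23. Fibroblast means were -0.29 and -0.01, and cardiomyocyte means 0.08 and 0.16. Each score overlapped between these groups. The part of cell types was not tested beyond the endothelial fit in the closing section. The 4 activators were all above 0 for PB1046 in mdx:Utrn+/-, at 0.04 (Psme3) to 0.28 (Psme4).

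The other members with the smallest unadjusted p for PB1046 in mdx were Psmd11, Psmb4 and Psmc3. Psmd11, a scaffold subunit of the lid, had 54.0, 67.7 and 45.8 TPM in mdx PB1046, against 43.7, 31.6 and 35.2 TPM in mdx saline. These do not overlap on deposited TPM but do after scaling, with a log2 change of 0.43 (-0.12 to 0.98, adjusted p = 0.999 in limma). Psmb4 had 335, 291 and 366 TPM in mdx PB1046, against 373, 353 and 372 TPM in mdx saline, a log2 change of -0.31. Psmc3, a base ATPase, had 269.8, 281 and 266 TPM in mdx PB1046, against 272, 293 and 309 TPM in mdx saline, a log2 change of -0.25. For PB1046 in mdx:Utrn+/- the smallest p were those of Psmd13, Psmc5 and Psmc1. Psmd13, a lid subunit, had 88.2, 101 and 111 TPM in mdx:Utrn+/- PB1046, against 125, 92.6 and 118 TPM in mdx:Utrn+/- saline, a log2 change of -0.33 (-0.75 to 0.10, adjusted p = 1.00 in limma). The base ATPase Psmc5 had 118, 147 and 149.6 TPM in mdx:Utrn+/- PB1046, against 132, 141 and 158 TPM in mdx:Utrn+/- saline, a log2 change of -0.23. Psmc1, another of the ATPase ring, had 211, 209.6 and 188 TPM in mdx:Utrn+/- PB1046, against 228, 222 and 198 TPM in mdx:Utrn+/- saline, a log2 change of -0.27. All of these overlapped between the groups after scaling.

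**Figure D4:**
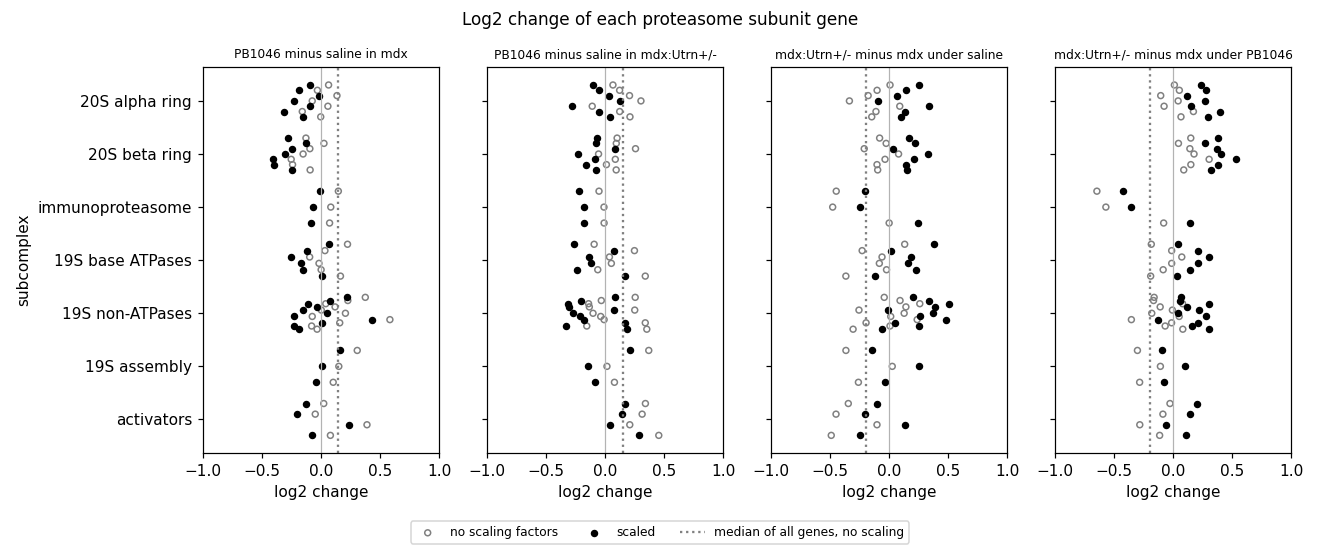
Log2 change of each member, by subcomplex, in 4 comparisons: black dots are values after scaling between libraries, open dots without scaling factors, and the dotted line is the median of all tested genes without scaling. For mdx:Utrn+/- minus mdx the black dots of the rings and cap lie mostly right of 0 and the open dots on both sides, and no member passed the test.

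The genotype comparison asks whether loss of 1 Utrn copy on top of mdx moves proteasome transcripts. No member was called under saline (0.0% of all genes), and 0 members had an unadjusted p under 0.05 (3.96% of all genes, 507). None was called under PB1046 (0.0% of all genes), and 0 had an unadjusted p under 0.05 (1.67% of all genes, 214). limma-voom gave 0 members at both thresholds, with 469 and 227 genes at an unadjusted p under 0.05. The 38 constitutive members had a median log2 change of 0.16 under saline and 0.21 under PB1046, with 29 and 34 of them above 0, beside 51.3% and 49.8% of tested genes above 0 and medians of 0.01 and -0.00 for all genes. Without scaling factors the medians were -0.09 and -0.01, with 12 and 16 above 0, beside -0.20 for all genes in both. The sign of the members' median thus turned with scaling, while it stayed above that of all genes. Leaving out 1 library at a time, the scaled median ranged from 0.06 (without replicate 2 of mdx saline) to 0.27 (without replicate 1 of mdx saline) under saline, and from 0.08 (without replicate 3 of mdx:Utrn+/- PB1046) to 0.35 (without replicate 1 of mdx PB1046) under PB1046. Cell markers had medians off 0 between genotypes as well, with none called. Under PB1046 10 of 10 cardiomyocyte markers were above 0 (median 0.30), and 8 of 8 fibroblast (median -0.77) and 13 of 13 macrophage markers (median -0.47) were below 0. Under saline 7 of 10 cardiomyocyte (median 0.09), 5 of 8 fibroblast (median 0.06) and 13 of 13 macrophage markers (median 0.38) were above 0. The scores of these lists overlapped between genotypes under both treatments. Under saline the macrophage score was 1.39, -0.31 and -0.39 in mdx:Utrn+/-, against -0.54, 0.97 and -0.94 in mdx. Scaling factors were 0.836 to 1.16 in the mdx:Utrn+/- libraries and 0.934 to 1.28 in the mdx libraries.

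After scaling, 4 constitutive members did not overlap between genotypes under saline, all higher in mdx:Utrn+/-: Psmb4, Psmc1, Psmc5 and Psmd7, a lid subunit. That is 4 of 38, beside 5.15% of all tested genes higher without overlap and 4.32% lower. On deposited TPM 0 members were higher without overlap (0.703% of genes) and 2 lower (15.1% of genes). Under PB1046 no member was free of overlap after scaling (5.79% of genes in either direction), and on deposited TPM 2 were higher (0.922% of genes) and 2 lower (6.33% of genes). Psmc1 had a log2 change of 0.38 under saline (-0.05 to 0.81, adjusted p = 0.855 in limma) on the TPM above for mdx:Utrn+/- saline, against 201, 189 and 201 TPM in mdx saline. Psmd3, a lid subunit, had 119, 105 and 95.4 TPM in mdx:Utrn+/- saline, against 109.7, 82.3 and 76.8 TPM in mdx saline, a log2 change of 0.50 (-0.02 to 1.03). Psmd11 had 48.9, 50.3 and 32.8 TPM in mdx:Utrn+/- saline, a log2 change of 0.48 against the mdx saline values above. These last 2 overlapped between the groups.

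Under PB1046 the smallest p were those of Psmb5 among the catalytic subunits (log2 change 0.53, -0.03 to 1.09, unadjusted p = 0.060 in limma) and Psmb4, Psmb1 and Psma6 among the others. Psmb4 had 366, 350.2 and 403 TPM in mdx:Utrn+/- PB1046, against 335, 291 and 366 TPM in mdx PB1046, a log2 change of 0.40. Psmb1 had 303, 275 and 296 TPM in mdx:Utrn+/- PB1046, against 266, 261 and 259 TPM in mdx PB1046, a log2 change of 0.38. Psma6 had 323, 287 and 349 TPM in mdx:Utrn+/- PB1046, against 317, 252 and 283 TPM in mdx PB1046, a log2 change of 0.40. Psmb1, a structural beta subunit, was higher in all 3 mdx:Utrn+/- PB1046 libraries on deposited TPM but overlapped after scaling. All 7 beta subunits were above 0 here with scaling (median 0.38) and without it (median 0.15). The immunoproteasome subunits Psmb8 and Psmb9 had log2 changes below 0 between genotypes, -0.21 and -0.24 under saline and -0.42 and -0.35 under PB1046, with intervals of -1.61 to 0.77 for Psmb8 and -1.65 to 0.94 for Psmb9 under PB1046. Psmb10 had 0.25 and 0.15. No endothelial marker was called (0.0% of all genes). Under saline 12 of 12 had values below 0 (48.7% of tested genes), with a median of -0.81 and a smallest unadjusted p of 0.073 in limma, and under PB1046 8 of 12 (50.2% of tested genes), with a median of -0.06. Their part in the genotype values was not tested beyond the fit named above.

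The fits that pool both factors gave the narrowest intervals. Averaged over treatments, 0 members were called between genotypes (0.0% of all genes) and 2 had an unadjusted p under 0.05 (3.44% of all genes, 440), both above 0. Psmb4 had a log2 change of 0.37 (0.04 to 0.69) and Psmd3 of 0.41 (0.03 to 0.78), each with an adjusted p of 0.854 in limma. The next was Psmd8, a lid subunit, at 0.27. It had 122, 125 and 135 TPM in mdx:Utrn+/- PB1046 and 147, 124 and 121 TPM in mdx:Utrn+/- saline, against 116, 127 and 124 TPM in mdx PB1046 and 147, 127 and 115 TPM in mdx saline. These values show no separation on the TPM scale, where the fitted change without scaling was 0.03. limma-voom also gave 2 members at an unadjusted p under 0.05, beside 419 of all tested genes, and called 0 members. For PB1046 averaged over genotypes 0 members were called (0.0% of all genes) and 0 had an unadjusted p under 0.05 (2.56% of all genes, 328), with Psmd13 (-0.28), Psmb6 (-0.28) and Psmb4 (-0.27) lowest in p. Of the 38 constitutive members 9 were above 0 and 29 below in that comparison, with a median of -0.09 (50.4% and 49.6% of tested genes), which turned to 0.07 without scaling, beside 0.14 for all genes. Between genotypes averaged over treatments 33 were above 0, with a median of 0.20 (48.2% of tested genes), and without scaling the median was -0.04, beside -0.21 for all genes. In the same comparison 10 of 10 cardiomyocyte markers were above 0, with a median of 0.21, and 12 of 12 endothelial (median -0.41) and 8 of 8 fibroblast markers (median -0.29) below 0. The scores of these lists overlapped between the libraries of the genotypes.

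The PB1046 response was not shown to differ between genotypes for any member. The interaction called 0 members (0.0% of all genes), 0 with an unadjusted p under 0.05 (2.23% of all genes, 285). The largest value was that of Psmd11, -0.61 (-1.38 to 0.17), followed in p by Psma4 (0.36) and Psmc1 (-0.34). Of the constitutive members 24 of 38 were above 0 (median 0.07), beside 48.2% of tested genes, and 14 of 38 (median -0.08) without replicate 1 of mdx saline. Psma4, an alpha subunit, had 190.0, 233 and 247 TPM in mdx:Utrn+/- PB1046 and 162, 178 and 200.3 TPM in mdx:Utrn+/- saline, against 206, 239 and 203 TPM in mdx PB1046 and 252, 201 and 229.5 TPM in mdx saline. In mdx:Utrn+/- the Psma4 values of PB1046 and saline overlapped, as they did in mdx. The comparisons share groups with each other, so they are not independent of one another. For the constitutive members the 95% interval extended a median of 0.48 log2 units either side of the value for 3 libraries against 3, and 0.34 for the pooled comparisons.

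The constitutive genes also differed between libraries of the same group. Replicate 3 of mdx:Utrn+/- PB1046 and replicate 1 of mdx saline had the highest summed constitutive TPM (6137 and 6362, against 5063 to 5726 in the other 10) and 32 of 38 members above their own mean in each. In these 2 libraries 13 constitutive members were higher than in all others (Psma1, Psma2, Psma4, Psma5, Psma6, Psma7, Psmb2, Psmb7, Psmc2, Psmd6, Psmd12, Psmd14 and Psme1), 34.2% of the 38 beside 6.88% of all tested genes. Psma1 had 219 and 222 TPM there, against 117 to 158 TPM elsewhere. Psmd4 alone was lowest in both, at 177 and 184 TPM, against 266 to 318 TPM elsewhere, a pattern of 3.39% of tested genes. The 2 libraries also had the lowest level of the ribosomal precursor entry Rn45s, 1178 and 1039 TPM, against 1708 to 42106 TPM. They were chosen after their values were seen and are the highest in summed TPM of these same members. The share of members highest in both is therefore raised by the choice. Their depth was 22546257 and 25458194 reads, while replicate 3 of mdx:Utrn+/- saline had 25013287. Whether Rn45s or depth has a part in the values of these 2 libraries was not tested. A fit with log2 Rn45s as a term was made for the group comparisons only, as given in the closing section. At the other end, 13 of 38 constitutive members had their lowest TPM in replicate 1 of mdx:Utrn+/- saline, 34.2% beside 26.6% of all tested genes.

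After scaling, the mean centred log2 level of the constitutive members was -0.33 to -0.09 in the 5 libraries with the highest endothelial scores and 0.07 to 0.23 in the other 7. On deposited TPM the same ranges were -0.13 to 0.13 and -0.15 to 0.24, which overlap. Those 5 had scaling factors of 1.00 to 1.28 and the other 7 of 0.836 to 1.01, and the cardiomyocyte score was -0.69 to 0.00 against -0.02 to 0.34. Only replicate 2 of mdx:Utrn+/- PB1046 among the mdx:Utrn+/- libraries belongs to the 5, against 4 of 6 mdx libraries. With the endothelial score as a term, the constitutive median between genotypes was -0.03 under saline, 0.18 under PB1046 and 0.08 averaged over treatments, against 0.16, 0.21 and 0.20 without it. The part of cell composition in these values was not tested otherwise.

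**Figure D5:**
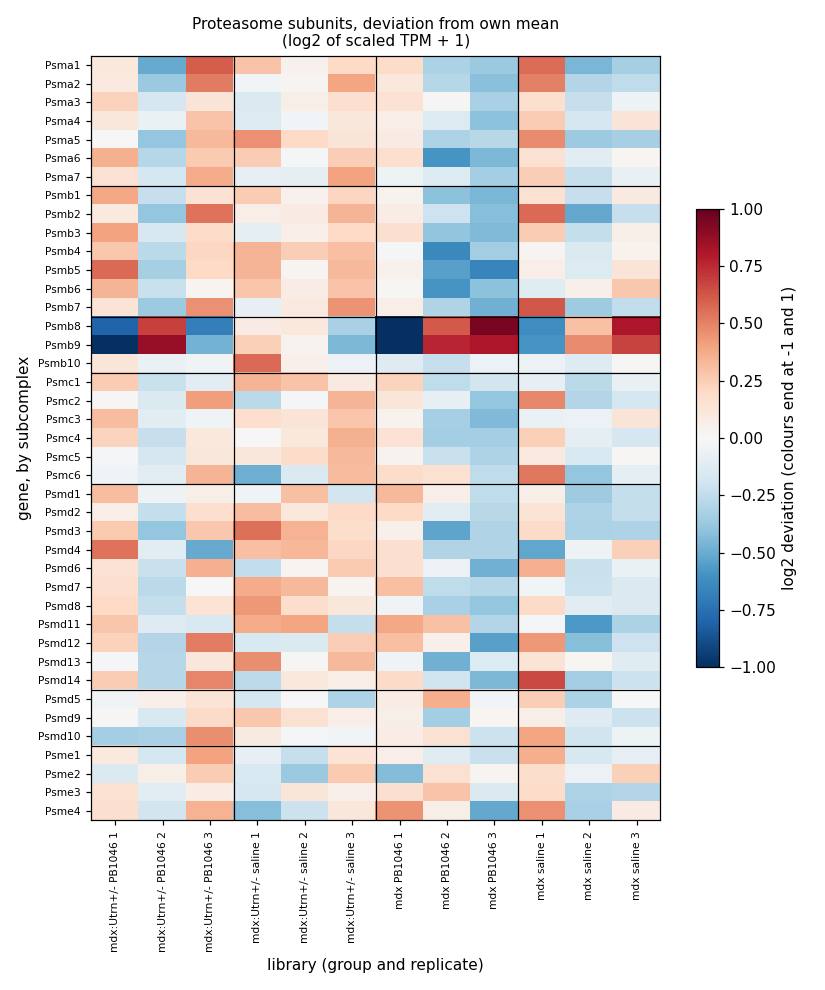
Deviation of each member from its own mean over the 12 libraries (log2 of scaled TPM + 1, colours end at -1 and 1), with genes by subcomplex in rows and libraries by group and replicate in columns. On this scaled level Psmb8 and Psmb9 are high in libraries where most constitutive members are low, as in replicate 2 of mdx:Utrn+/- PB1046, and Psmd4 goes against its neighbours in replicate 3 of mdx:Utrn+/- PB1046 and replicate 1 of mdx saline.

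Genes that work with the proteasome gave no calls either. No gene of any kind was called in the main fit (0.0% of all tested genes in each comparison), so a count of 0 does not set a list apart. Of 14 tested genes for assembly and associated factors, 0 were called in any comparison. Between genotypes under saline 2 of these 14 had an unadjusted p under 0.05, beside 3.96% of all tested genes (507). Among the 2 was Pomp, the maturation factor of the core (log2 change 0.72, adjusted p = 0.855 in limma). Averaged over treatments Psmg4, an assembly chaperone of the alpha ring, had 0.41 (unadjusted p = 0.021). For PB1046 in mdx Shfm1, the small lid subunit also called Sem1, had -0.55 (unadjusted p = 0.031). Of 10 NRF1 and stress-response genes 0 were called. Nfe2l1, which encodes NRF1, had 0.39 for PB1046 in mdx (unadjusted p = 0.14 in limma), and Nqo1, an antioxidant enzyme, had -0.71 for PB1046 in mdx:Utrn+/- (unadjusted p = 0.035) and 0.70 between genotypes under saline (unadjusted p = 0.036). Of 16 ubiquitin genes and shuttle factors 0 were called. Of 9 ubiquitin ligases of muscle 0 were called: Trim54 had 0.55 between genotypes averaged over treatments (unadjusted p = 0.031), and Fbxo32 (atrogin) -0.38 for PB1046 averaged over genotypes (unadjusted p = 0.053).

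Of 13 antigen-processing genes and 21 interferon-response genes 0 were called in any comparison, beside 0.0% of all tested genes. Between genotypes averaged over treatments 19 of 21 interferon genes were below 0, with a median of -0.31, beside 51.8% of tested genes below 0 and a median of -0.01. Ifit2 had -0.52 there (unadjusted p = 0.051 in limma). For PB1046 in mdx 15 of 21 were below 0 after scaling, beside 49.0% of tested genes, while Isg15, a ubiquitin-like modifier, had 0.72 (unadjusted p = 0.033). On deposited TPM the summed interferon genes averaged 530 TPM in mdx PB1046, higher than the 460 TPM in mdx saline. The interferon score was -0.55, 0.53 and 0.39 in mdx PB1046, against -0.18, 0.35 and 0.39 in mdx saline, so the groups overlapped. Calr, a chaperone of class I assembly, had 0.60 between genotypes under saline (unadjusted p = 0.035). The 5 libraries highest in the interferon score were those highest in the endothelial score, as described above, though not in the same order. The part of endothelial cells in these values was not tested.

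The authors' deposited table of 6 pairwise comparisons held 0 members at a false discovery rate under 0.05 and 0 genes of any kind. In the authors' deposited table the smallest false discovery rate of a member was 0.732. Its log2 changes run from the first named group to the second, judged by their correlation with TPM. A p under 0.05 was given in the authors' deposited table for 3 members, all in mdx PB1046 minus mdx:Utrn+/- saline, a pair that differs in both factors, led by Psmb4 with a log2 change of -0.62 (p = 0.024).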

How the data were processed

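The authors deposited 1 table of 18530 genes, on mm10 per the submitters' processing notes, which also name edgeR with no version. Its name says raw counts, yet what was deposited is TPM, since each library sums to 1000000. Beside them stand the authors' pairwise comparisons. Per the file headers they give log2 fold changes with an average log2 CPM, likelihood ratios (a score), p-values and false discovery rates. The sources used here give neither aligner nor counter nor counting strand. Libraries were made from 1.0 µg of RNA with a stranded poly-A kit, per the labels' protocols. Gene coordinates are printed 1-based.

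Groups and replicate numbers come from the titles. TPM were divided by trimmed-mean factors (trimming 30% of log ratios and 5% of levels, with factors of 0.836 to 1.28), put on the scale log2(TPM + 1), which understates changes of low genes, and fitted with limma 3.58.1 (trend and robust, R 4.3.3) over 12798 genes that reached 1 TPM in 3 or more libraries. The fit had a mean per group and 8 residual degrees of freedom. There were 7 contrasts, and p-values were adjusted over all 12798 genes by Benjamini-Hochberg at a threshold of 0.05. Whole reads were recovered from the deposited TPM for 100% of genes (tolerance 0.1 reads) and served depth and limma-voom only. Reads without molecular identifiers are not independent molecules. The fit was also run on simulated data, with changes larger than those printed here for members. That run cannot show whether changes as small as the members' would be found.

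The members and lists were chosen with earlier results of these data known, so a list's count is a description. Named members are the immunoproteasome and catalytic subunits, the activators and, per contrast, the 3 others with the smallest p. From the related lists, members with the smallest p are named. Alternatives were other scaling, pseudocount, filter and tool, covariates, a replicate block and leaving out each library.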

Additional observations from a re-analysis of the deposited data

How the results depend on the processing

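No setting called a member in any of the 7 comparisons. A single gene of the 12798, not a member, was called, in the interaction without replicate 3 of mdx:Utrn+/- saline. The direction of small medians and of the immunoproteasome values depended on several choices, and the cause was not tested. Values below are log2 changes.

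Without scaling factors the median of the 38 constitutive members for mdx:Utrn+/- minus mdx was -0.089 under saline, -0.011 under PB1046 and -0.037 averaged over treatments, against 0.16, 0.21 and 0.20 with them. In the same setting PB1046 minus saline in mdx was 0.15 for Psmb8, 0.082 for Psmb9 and 0.072 for Psmb10, and averaged over genotypes 0.048, 0.037 and 0.032, while Psmb10 between genotypes was -0.079 under PB1046 and -0.039 averaged over treatments. With trends over length and abundance removed, the constitutive median under saline between genotypes was -0.065, PB1046 in mdx was 0.064 for Psmb8, 0.064 for Psmb9 and 0.0085 for Psmb10, and Psmb10 between genotypes was -0.032 under PB1046 and -0.00061 averaged over treatments.

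With the endothelial score as a term, Psmb8 and Psmb9 between genotypes were 0.54 and 0.54 under saline and 0.11 and 0.15 averaged over treatments, against -0.21, -0.24, -0.31 and -0.30 without it, and the constitutive median was 0.13 for PB1046 in mdx:Utrn+/- and -0.027 between genotypes under saline. With log2 Rn45s as a term the interaction was 0.074 for Psmb8 and 0.10 for Psmb9. With a term for the lowest library numbers, PB1046 in mdx was 0.27 for Psmb8 and 0.25 for Psmb9, averaged over genotypes 0.023 and 0.033, and between genotypes under saline 0.071 and 0.076.

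Leaving out 1 library at a time, PB1046 in mdx ranged from -0.41 to 0.62 for Psmb8 and from -0.46 to 0.60 for Psmb9, both highest without replicate 1 of mdx PB1046. PB1046 in mdx:Utrn+/- ranged from -0.70 to 0.044 for Psmb8, from -0.74 to 0.26 for Psmb9, from -0.30 to 0.011 for Psmb10 and from -0.12 to 0.14 for the constitutive median, which was highest without replicate 2 of mdx:Utrn+/- PB1046. The constitutive median ranged from -0.26 to 0.068 for PB1046 in mdx and from -0.084 to 0.24 for the interaction, and turned sign in both without replicate 1 of mdx saline. The interaction median was also below 0 without replicate 3 of mdx:Utrn+/- PB1046 (-0.0048) and without replicate 3 of mdx PB1046 (-0.029). The median was below 0 throughout for PB1046 averaged over genotypes (-0.17 to -0.0062) and above 0 throughout between genotypes averaged over treatments (0.14 to 0.26). Between genotypes under saline the range was -0.60 to 0.12 for Psmb8 and -0.63 to 0.0025 for Psmb9, and under PB1046 -1.02 to 0.086 for Psmb9. The interaction ranged from -0.84 to 0.18 for Psmb8, from -0.78 to 0.33 for Psmb9 and from -0.22 to 0.092 for Psmb10. PB1046 averaged over genotypes ranged from -0.35 to 0.20 for Psmb8 and from -0.40 to 0.21 for Psmb9. The log2 ratio for PB1046 averaged over genotypes ranged from -0.24 to 0.56 for Psmb8 over Psmb5, from -0.23 to 0.58 for Psmb9 over Psmb6 and from -0.12 to 0.19 for Psmb10 over Psmb7, and for genotype from -0.19 to 0.099 for the last.

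The replicate numbers were not taken as pairs in the main fit. Of 18 correlations of same-numbered deviations 5 exceeded 0.1 (-0.44 to 0.49). Differently numbered libraries were not compared, so these values cannot decide whether the numbers pair the libraries. The fit with the replicate block called 0 members in every comparison. Each member value rested on at least 36 recovered reads.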
